A study of Arabidopsis thaliana with 6 samples.

Results

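Trans-acting small interfering RNAs (tasiRNAs) are plant small RNAs cut from dedicated TAS transcripts, and this account follows 10 loci of their pathway in Arabidopsis thaliana. They are 3 miRNA genes that start the pathway (MIR173, MIR390A, MIR390B), 4 genes for proteins that make or use the small RNAs (AGO7, RDR6, SGS3, DCL4) and 3 auxin response factor genes that are its best-known targets (ARF2, ARF3, ARF4). The 10 loci were chosen by gene identifier from 32420 loci in all, and in RefSeq TAIR10.1 no other annotated gene overlaps any of them. Each value counts small RNAs that matched a locus after immunoprecipitation of ARGONAUTE1 (AGO1), the protein that carries most plant miRNAs, and is no mRNA level. The TAS transcripts' own small RNAs were not analysed here.

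Aerial parts of 20-day-old plants were used, after 6 days on medium and 14 days on soil, with no treatment. There were 6 libraries, 2 described as biological replicates from each of 3 genotypes: ein5 dcl4 dcl2 (alleles ein5-1, dcl4-2 and dcl2-1), ein5 dcl4 (ein5-1 and dcl4-2) and Col-0, the wild type. EIN5 removes decapped mRNA from the 5′ end, DCL4 is the Dicer-like enzyme that makes tasiRNAs, and DCL2 is the one that makes siRNAs of 22 nt. Both mutant genotypes therefore lack EIN5 and DCL4, and no genotype lacks DCL4 alone. All 6 libraries were AGO1 immunoprecipitates, so more small RNA of a kind and more loading of it onto AGO1 cannot be told apart, and neither can fewer cells of a type and less RNA per cell.

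A tasiRNA begins when a miRNA guides an ARGONAUTE to a TAS transcript. In the branch started by miR173, AGO1 carries the miRNA and cuts TAS1 and TAS2. In the branch started by miR390, AGO7 carries the miRNA and binds TAS3 at a pair of sites. SGS3 protects the cut RNA, RDR6 copies it into double-stranded RNA, and DCL4 slices that in steps counted from the cut. The TAS3 products called tasiARFs then direct cutting of ARF2, ARF3 and ARF4 mRNA, a switch known for the timing of the juvenile-to-adult change and for leaf shape.

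The mature trigger sequences show how the branches differ. They are the RefSeq mature miRNAs at their TAIR10.1 positions, 5′ to 3′, with the seed (bases 2 to 8) in capitals.
miR173-5p (chr3:8236161-8236182, plus strand): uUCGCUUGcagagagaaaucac
miR390a-5p (chr2:16061971-16061991, plus strand): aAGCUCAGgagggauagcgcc
miR390b-5p (chr5:23636961-23636981, plus strand): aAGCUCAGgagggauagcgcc
miR173-5p is 22 nt long and begins with U, the first base that AGO1 is known to prefer. Both miR390 sequences are 21 nt long and begin with A, and they are identical at 21 of 21 bases, so reads of miR390-5p cannot be assigned to MIR390A or MIR390B. The precursors share a longest run of 26 bases, and 9.20% of the 21-base words of MIR390A and 8% of those of MIR390B occur more than once in the genome, against 0% for MIR173. The counts at both MIR390 loci are therefore read as 1 measurement given at a pair of loci.

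The stretches that pair with miR173 and miR390 were searched in the TAS transcripts and are shown as DNA on the strand of the transcript, with capitals where the base does not pair (G:U pairs counted as mismatches).
TAS1A (chr2:11722081-11722102, minus strand), 2 mismatches to miR173: gtgatttTtctctAcaagcgaa
TAS1B (chr1:18549660-18549681, minus strand), 3 mismatches to miR173: gtgatttTtctcAAcaagcgaa
TAS2 (chr2:16539991-16540012, minus strand), 2 mismatches to miR173: gtgatttTtctctCcaagcgaa
TAS3 nearer the 5′ end (chr3:5862099-5862119, plus strand), 5 mismatches to miR390: ggTgTtatccTATctgagctt
TAS3 nearer the 3′ end (chr3:5862343-5862363, plus strand), 5 mismatches to miR390: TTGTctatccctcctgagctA
TAS1C holds the same 22 bases as TAS1A. In TAS3 the stretch nearer the 5′ end has 3 mismatches in a row in its middle, and the stretch nearer the 3′ end pairs there.

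The link between TAS3 and the ARF genes is a shared stretch of 21 bases. Of 3734 words of 21 bases in 3 TAS3 transcripts, both strands counted, 6 paired with ARF2, ARF3 and ARF4 mRNA with at most 2 mismatches to each. The best word in TAS3 and the neighbour 21 bases before it are shown as RNA, with capitals where the neighbour differs.
TAS3, chr3:5862205-5862225, plus strand: uuucuugaccuuguaagaccc
TAS3, chr3:5862184-5862204, plus strand: uuucuugaccuuguaagGccU
The words share 19 of 21 bases. The 3′ end of the first lies 128 bases before the bond opposite bases 10 and 11 of miR390 at the 3′ site, which is 6 steps of 21 bases plus 2, and the neighbour is 1 step further. The pairing stretches in the ARF mRNAs, with mismatches to the first word in capitals, are these.
ARF2, chr5:24913262-24913282, plus strand: gggtcttGcaaggtcaagaaT
ARF3, chr2:14325941-14325961, minus strand: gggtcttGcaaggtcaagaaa
ARF3, chr2:14325821-14325841, minus strand: AggtcttGcaaggtcaagaaa
ARF4, chr5:24309717-24309737, minus strand: AggtcttGcaaggtcaagaaa
ARF4, chr5:24309507-24309527, minus strand: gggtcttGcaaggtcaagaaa
All 21 bases of each stretch are coding sequence. ARF2 has 1 such stretch, and ARF3 and ARF4 have 2 each. ARF3 and ARF4 carry the same pair of sequences in the opposite order along the mRNA. None of the other 20 ARF genes had a stretch with 5 or fewer mismatches, and their best ones had 7 to 9. A match is a description of the letters and does not show that a site is used.

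**Figure D1:**
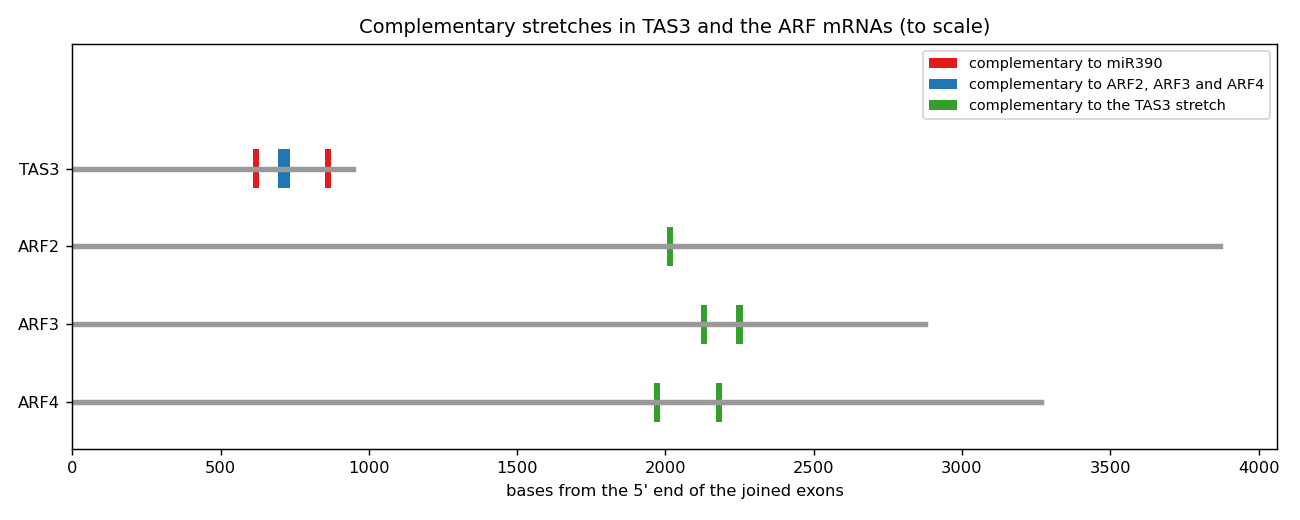
Positions of the pairing stretches along the joined exons of TAS3, ARF2, ARF3 and ARF4 (x axis, bases from the 5′ end, to scale). Red marks pair with miR390, the blue block is the pair of neighbouring 21-base words, and green marks pair with the first of these words, 1 mark in ARF2 and 2 each in ARF3 and ARF4.

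The libraries differed in what they held, and this bears on every comparison. Recovered reads ran between 836879 and 1292727 per library. Reads at miRNA loci made up 96.4% and 96.0% of the reads in ein5 dcl4 dcl2, 3.69% and 4.80% in ein5 dcl4, and 65.5% and 68.2% in Col-0. Reads at protein-coding genes made up 1.35% and 1.54% in ein5 dcl4 dcl2, 95.1% and 94.0% in ein5 dcl4, and 15.9% and 14.6% in Col-0. The deposited values are reads divided by a size factor set on 2300 loci with reads in all 6 libraries, and are called normalised reads below. As a result 1 read was worth 1.71 and 1.90 normalised reads in ein5 dcl4 dcl2, 1.92 and 2.79 in ein5 dcl4, but 0.185 and 0.257 in Col-0. A count of 0 allows up to 3 reads, which is 5.12 and 5.70 normalised reads in ein5 dcl4 dcl2, 5.75 and 8.37 in ein5 dcl4, and 0.555 and 0.770 in Col-0. Intervals and limits cover counting error only. Libraries are called a and b, as their replicate numbers are not known.

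MIR173 (AT3G23125, chr3:8236153-8236254, plus strand) had the most reads of the 10 loci in every library and changed in all 3 comparisons at the deposited scaling. It held 7626 and 4726 reads in ein5 dcl4 dcl2, 149 and 148 reads in ein5 dcl4, and 11253 and 6223 reads in Col-0. In normalised reads these were 13028 and 8980 in ein5 dcl4 dcl2, 285 and 413 in ein5 dcl4, and 2084 and 1597 in Col-0. No pair of genotypes overlapped, with ein5 dcl4 dcl2 highest, Col-0 between and ein5 dcl4 lowest. The means were 11004 ± 2862 normalised reads in ein5 dcl4 dcl2, 349 ± 90.1 in ein5 dcl4 and 1840 ± 344 in Col-0 (SD, n = 2 libraries each). In limma MIR173 fell in ein5 dcl4 against Col-0, with a log2 difference of -2.41 (SE 0.28, adjusted p = 0.00399). It was higher in ein5 dcl4 dcl2 than in ein5 dcl4, with a log2 difference of 4.97 (SE 0.28, limma adjusted p = 0.000665), a 31.4-fold difference. Against Col-0, ein5 dcl4 dcl2 was higher by 2.57 (SE 0.28, limma adjusted p = 0.0277).

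MIR390A (AT2G38325, chr2:16061954-16062060, plus strand) and MIR390B (AT5G58465, chr5:23636947-23637066, plus strand) had far fewer reads and followed the same order of genotypes. MIR390A held 57 and 44 reads in ein5 dcl4 dcl2, 3 and 2 reads in ein5 dcl4, and 53 and 60 reads in Col-0. MIR390B held 53 and 43 reads in ein5 dcl4 dcl2, 3 and 2 reads in ein5 dcl4, and 49 and 44 reads in Col-0. The ratio of MIR390B to MIR390A reads was 0.930 and 0.977 in ein5 dcl4 dcl2, 1 in both ein5 dcl4 libraries, and 0.925 and 0.733 in Col-0. The near-equal counts go with the identical mature sequence shown above, and how reads that match several loci were counted is not given in the sources used here.

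In normalised reads MIR390A came to 97.4 and 83.6 in ein5 dcl4 dcl2, 5.75 and 5.58 in ein5 dcl4, and 9.81 and 15.4 in Col-0. MIR390B came to 90.5 and 81.7 in ein5 dcl4 dcl2, 5.75 and 5.58 in ein5 dcl4, and 9.07 and 11.3 in Col-0. The ein5 dcl4 dcl2 libraries lay above all others at both loci, and the ein5 dcl4 libraries lay just below those of Col-0. Against ein5 dcl4, ein5 dcl4 dcl2 was higher by 3.78 for MIR390A (SE 0.33, limma adjusted p = 0.00197) and 3.71 for MIR390B (SE 0.29, limma adjusted p = 0.00150), on the log2 scale. Against Col-0, ein5 dcl4 dcl2 was higher by 2.78 for MIR390A (SE 0.33, limma adjusted p = 0.0349) and 2.97 for MIR390B (SE 0.29, limma adjusted p = 0.0195). Between ein5 dcl4 and Col-0 the log2 differences were -1.0 for MIR390A (95% interval -1.85 to -0.15, limma adjusted p = 0.0606) and -0.74 for MIR390B (-1.47 to -0.01, limma adjusted p = 0.0910), and neither passed at the deposited scaling. Both passed under 2 other scalings of the libraries, described further on, with MIR390A at -2.56 and -3.99 (limma adjusted p = 0.00467 and 0.000247) and MIR390B at -2.29 and -3.71 (limma adjusted p = 0.00571 and 0.000242) under trimmed-mean scaling and equal table totals.

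**Figure D2:**
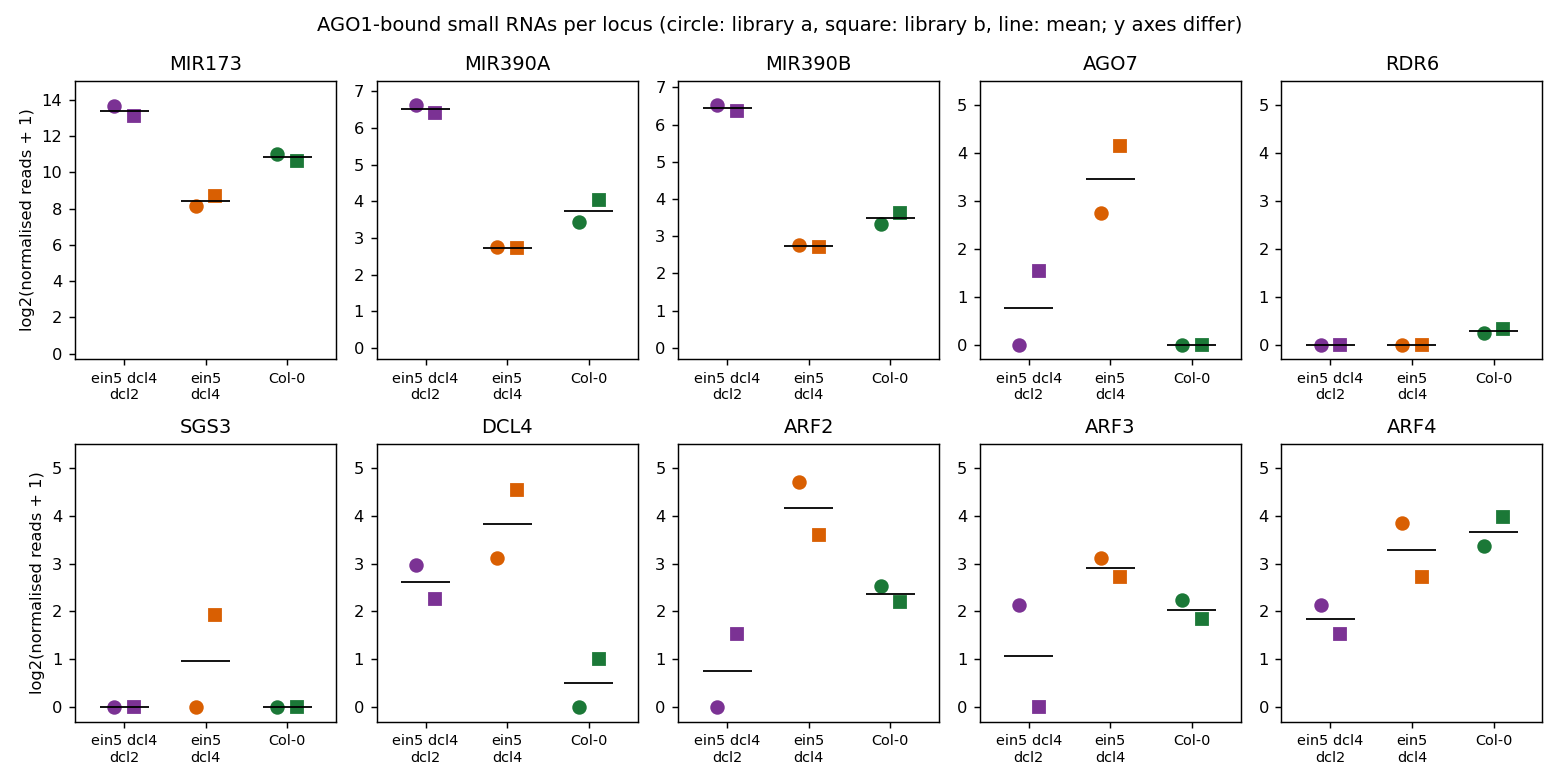
Small RNAs at the 10 loci on the log2(normalised reads + 1) scale (y axes differ), for ein5 dcl4 dcl2, ein5 dcl4 and Col-0, with a circle for library a, a square for library b and a line for the mean. The 3 miRNA loci are highest in ein5 dcl4 dcl2, AGO7 and ARF2 are highest in ein5 dcl4, and RDR6 and SGS3 lie at 0 in most libraries, with SGS3 at 2.79 normalised reads in ein5 dcl4 library b.

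At the deposited scaling most miRNA loci were higher in ein5 dcl4 dcl2, as the triggers were, while most were not called in ein5 dcl4 against Col-0. Among 132 tested miRNA loci of 178, 111 (84.1%) rose and 2 (1.52%) fell in ein5 dcl4 dcl2 against ein5 dcl4, with a median log2 difference of 3.70. Against Col-0, 70 (53%) rose and 1 (0.758%) fell in ein5 dcl4 dcl2, with a median of 3.04. In ein5 dcl4 against Col-0, 16 (12.1%) rose and 38 (28.8%) fell, with a median of -0.82. With equal miRNA totals, 32 of 126 tested miRNA loci rose and 23 fell in ein5 dcl4 dcl2 against ein5 dcl4 (median 0.23), and 3 rose and 1 fell in ein5 dcl4 dcl2 against Col-0 (median -0.10), and with equal table totals 26 of 136 were higher in the second of these comparisons. For ein5 dcl4 against Col-0 the trimmed mean put 80 of 133 lower and equal table totals 113 of 136. Of 7833 tested protein-coding genes 4.53% rose and 50.6% fell in ein5 dcl4 dcl2 against ein5 dcl4 (median -2.10). Against Col-0, 0.472% rose and 0.345% fell in ein5 dcl4 dcl2 (median 0), and 55.4% rose and 2.39% fell in ein5 dcl4 (median 2.13). The loci whose levels over the 6 libraries lay nearest to MIR173, of 1851 candidates and by Euclidean distance of centred log2 values, were MIR171b (0.423), MIR171c (0.441) and MIR158b (0.767). Nearest to MIR390A were MIR390B (0.352), MIR166a (0.644) and MIR396b (0.699), and nearest to MIR390B were MIR390A (0.352), MIR319a (0.515) and MIR159a (0.535). The likeness of MIR390A and MIR390B was given beforehand by their identical mature sequence and is no result.

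As a share of the reads at miRNA loci, which does not depend on the size factors, the triggers looked different. MIR173 made up 0.717% and 0.584% of miRNA reads in ein5 dcl4 dcl2, 0.312% and 0.368% in ein5 dcl4, and 1.41% and 0.953% in Col-0. The means were 0.650% ± 0.0940 in ein5 dcl4 dcl2, 0.340% ± 0.0398 in ein5 dcl4 and 1.18% ± 0.323 in Col-0 (SD, n = 2), so MIR173 had its largest share in Col-0 and its smallest in ein5 dcl4, with no overlap. An exact two-sided permutation test cannot go below p = 0.333 with 2 libraries against 2, and each MIR173 comparison gave that value (0.5 after adjustment over 9 comparisons). The mean share of MIR390A was 0.00540% in ein5 dcl4 dcl2, 0.00563% in ein5 dcl4 and 0.00792% in Col-0, and that of MIR390B was 0.00515%, 0.00563% and 0.00644% in the same genotypes. With 2 or 3 reads at each locus per ein5 dcl4 library, no change of the miR390 share was detectable at this depth between ein5 dcl4 dcl2 and ein5 dcl4. The shares also depend on the MIR165 and MIR166 loci in the total. Without these, the mean share in ein5 dcl4 dcl2 and ein5 dcl4 was 0.0190% and 0.00995% for MIR390A, and 0.0181% and 0.00995% for MIR390B. For MIR173 it was 2.30% in ein5 dcl4 dcl2, 0.612% in ein5 dcl4 and 3.27% in Col-0, the same order of genotypes. Within a library MIR173 outnumbered MIR390A, a locus of similar length (102 and 107 bases), by 134 and 107 reads per read in ein5 dcl4 dcl2, 49.7 and 74 in ein5 dcl4, and 212 and 104 in Col-0. AGO7 carries miR390 while AGO1 was precipitated, and how reads matching both MIR390 loci were counted is not given. These ratios are therefore no measure of the relative amounts of miR173 and miR390 in the plant.

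**Figure D3:**
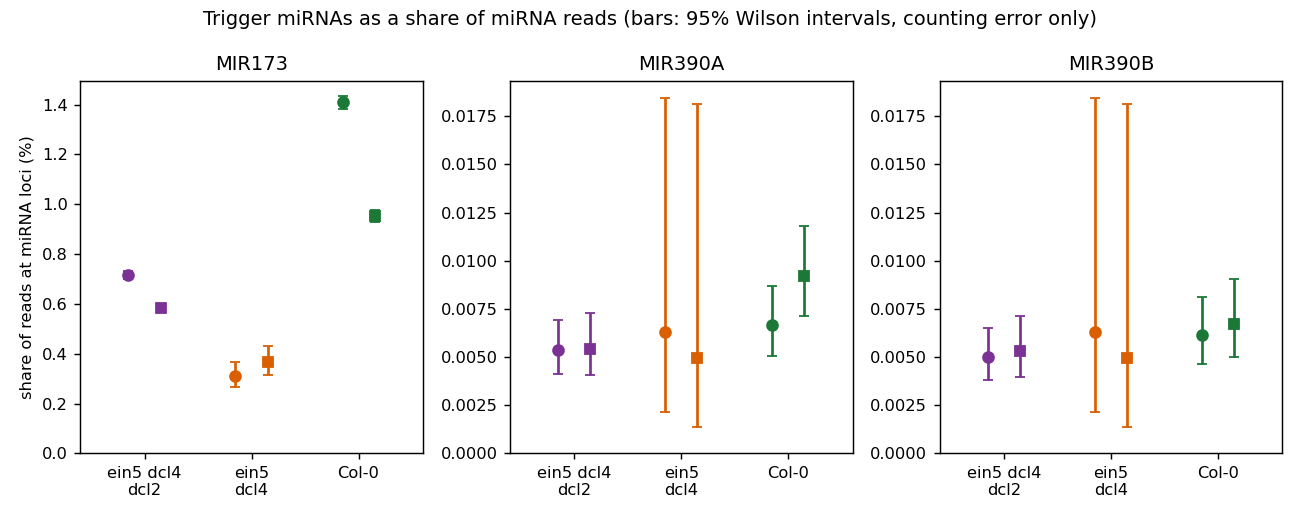
Reads at MIR173, MIR390A and MIR390B as a percentage of reads at all miRNA loci (y axes differ between panels), with 95% Wilson intervals that cover counting error only, for both libraries of ein5 dcl4 dcl2, ein5 dcl4 and Col-0. MIR173 is lowest in ein5 dcl4, at 0.312% and 0.368%, and the wide intervals of MIR390A and MIR390B in ein5 dcl4 rest on 2 or 3 reads.

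The 4 maker genes gave very few small RNAs. Their summed reads were 4 and 3 in ein5 dcl4 dcl2, 7 and 15 in ein5 dcl4, and 1 and 5 in Col-0. AGO7 (AT1G69440, chr1:26101407-26105328, minus strand) encodes the ARGONAUTE that carries miR390, and its locus held 0 and 1 reads in ein5 dcl4 dcl2, 3 and 6 reads in ein5 dcl4, and 0 reads in both Col-0 libraries. In normalised reads that was 0 and 1.90 in ein5 dcl4 dcl2, 5.75 and 16.7 in ein5 dcl4, and 0 in Col-0. The ein5 dcl4 libraries lay above the others, and AGO7 passed the filter on low values only through ein5 dcl4 (mean of the other 4 libraries 0.475 normalised reads, where 1 is needed), so a locus tested in this way had to differ and its calls are given as a description. In limma the log2(value + 1) difference was 3.45 in ein5 dcl4 against Col-0 (SE 0.72, adjusted p = 0.0168), a value that depends on the added 1 and is no fold change. In ein5 dcl4 dcl2 against ein5 dcl4 it was -2.68 (SE 0.72, limma adjusted p = 0.0320). Both calls were lost when any of the Col-0 or ein5 dcl4 libraries was left out, with limma adjusted p of 0.0504 to 0.110 for the first and 0.0733 to 0.171 for the second. The second was also lost without ein5 dcl4 dcl2 library a (0.110), with equal totals over the table (0.0693), with no filter (0.0622) and with only the 2 genotypes compared in the fit (0.0856). Leaving out a Col-0 library also lowers how many loci are called in all. In ein5 dcl4 against Col-0, 724 and 729 loci were higher without Col-0 library a or b, against 4401 with all libraries, so a call lost in these fits is no sign of a smaller difference.

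DCL4 (AT5G20320, chr5:6859212-6869307, minus strand), the Dicer-like gene mutated in both mutants, held 4 and 2 reads in ein5 dcl4 dcl2, 4 and 8 reads in ein5 dcl4, and 0 and 4 reads in Col-0. In normalised reads that was 6.83 and 3.80 in ein5 dcl4 dcl2, 7.66 and 22.3 in ein5 dcl4, and 0 and 1.03 in Col-0. The read counts overlapped between all genotypes, while in normalised reads both mutants lay above Col-0. In limma DCL4 rose in ein5 dcl4 against Col-0 (log2(value + 1) difference 3.32, SE 0.67, adjusted p = 0.0146), and the call was lost without Col-0 library a (0.109), Col-0 library b (0.0752) or ein5 dcl4 library b (0.0798), and with equal totals over the table (0.163). Small RNAs at the locus do not check the dcl4-2 allele. RDR6 (AT3G49500, chr3:18348974-18353673, minus strand), the RNA-dependent RNA polymerase of the pathway, held 0 reads in all 4 mutant libraries and 1 read in each Col-0 library. SGS3 (AT5G23570, chr5:7942908-7946147, plus strand), its partner, held 0 and 0 reads in ein5 dcl4 dcl2, 0 and 1 reads in ein5 dcl4, and 0 in both Col-0 libraries. Neither reached the mean of 1 normalised read needed for testing, and at this depth no difference was detectable.

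The 3 ARF targets, transcription factor genes of auxin signalling, also held few reads. ARF2 (AT5G62000, chr5:24910191-24915395, plus strand) held 0 and 1 reads in ein5 dcl4 dcl2, 13 and 4 reads in ein5 dcl4, and 26 and 14 reads in Col-0. ARF3 (AT2G33860, chr2:14325206-14328978, minus strand), known for the lower leaf side, held 2 and 0 reads in ein5 dcl4 dcl2, 4 and 2 reads in ein5 dcl4, and 20 and 10 reads in Col-0. ARF4 (AT5G60450, chr5:24308255-24312784, minus strand), which acts with ARF3, held 2 and 1 reads in ein5 dcl4 dcl2, 7 and 2 reads in ein5 dcl4, and 50 and 57 reads in Col-0. In raw reads all 3 genes were therefore highest in Col-0, and their sum was 4 and 2 in ein5 dcl4 dcl2, 24 and 8 in ein5 dcl4, and 96 and 81 in Col-0.

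Size factors changed that order. ARF2 came to 0 and 1.90 normalised reads in ein5 dcl4 dcl2, 24.9 and 11.2 in ein5 dcl4, and 4.81 and 3.59 in Col-0. ARF3 came to 3.42 and 0 normalised reads in ein5 dcl4 dcl2, 7.66 and 5.58 in ein5 dcl4, and 3.70 and 2.57 in Col-0. ARF4 came to 3.42 and 1.90 normalised reads in ein5 dcl4 dcl2, 13.4 and 5.58 in ein5 dcl4, and 9.26 and 14.6 in Col-0. ARF2 and ARF3 were thus highest in ein5 dcl4, and ARF4 overlapped between ein5 dcl4 and Col-0. For all 3 genes the ein5 dcl4 dcl2 libraries lay below those of ein5 dcl4. The share of all loci that separated in this way was not computed. In that comparison limma called 35.9% of all tested loci and 50.6% of tested protein-coding genes lower.

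Of the 3 genes, ARF2 passed the test in 1 comparison. In limma it fell in ein5 dcl4 dcl2 against ein5 dcl4 (log2(value + 1) difference -3.38, SE 0.67, adjusted p = 0.0134), on a total of 1 read against 17. The call was lost without Col-0 library a (0.0539), Col-0 library b (0.0540), ein5 dcl4 library a (0.103) or ein5 dcl4 library b (0.0563), where 2128, 2120, 3640 and 3820 loci were lower against 4087 with all libraries. In the same comparison the limma differences were -1.84 for ARF3 (adjusted p = 0.107) and -1.44 for ARF4 (adjusted p = 0.0810). Leaving out 1 library moved ARF3 between -2.92 and -0.77 and ARF4 between -2.01 and -0.88, and without ein5 dcl4 dcl2 library a ARF3 passed (limma adjusted p = 0.0184). In ein5 dcl4 against Col-0 they were 1.78 for ARF2 (95% interval 0.07 to 3.49, adjusted p = 0.0849), 0.88 for ARF3 (-1.05 to 2.82, adjusted p = 0.387) and -0.38 for ARF4 (-1.74 to 0.98, adjusted p = 0.582). For ein5 dcl4 dcl2 against Col-0 they were -1.60, -0.96 and -1.82, with limma adjusted p of 0.369, 0.776 and 0.206. Over both libraries ARF3 had 2 reads in ein5 dcl4 dcl2 against 6 in ein5 dcl4, and ARF4 had 3 against 9, so these intervals are wide.

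Read against all loci, the members' calls were as follows. In ein5 dcl4 against Col-0, 2 of the 8 tested members rose (DCL4, and AGO7, which was testable only through ein5 dcl4) and 1 fell (MIR173), where 38.7% of all 11376 tested loci rose and 6.45% fell. In ein5 dcl4 dcl2 against ein5 dcl4, 3 members rose (MIR173 and both MIR390 loci, which are 1 measurement) and 2 fell (ARF2, and AGO7 with the same limit), where 11.3% of tested loci rose and 35.9% fell. The same 3 miRNA loci rose in ein5 dcl4 dcl2 against Col-0, with the MIR390 loci again 1 measurement, where 1.08% of tested loci rose, and no member fell, where 0.299% fell. At an unadjusted p under 0.05, limma put 4 members higher, counting both MIR390 loci, and 1 lower in that comparison. Of all 11376 tested loci 1262 were higher and 484 lower at that threshold. With voom weights limma called 5 members higher and 0 lower, where 42.2% of all loci were higher and 2.42% lower. Medians over all tested loci were 1.49, -1.33 and 0 in these 3 comparisons. The comparisons share libraries, so their calls are not independent of each other.

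The 3 calls of ein5 dcl4 dcl2 against Col-0 could not be checked by leaving out a library of these genotypes. Without 1 of these 4 libraries limma called 0 of 11376 loci in that comparison, with 575 to 1583 higher at an unadjusted p under 0.05. The log2 differences with each of the 6 libraries left out stayed between 2.30 and 2.84 for MIR173, 2.48 and 3.08 for MIR390A, and 2.82 and 3.11 for MIR390B. Without either ein5 dcl4 library 2.18% and 2.11% of loci were called higher, among them MIR390B, while MIR173 (limma adjusted p = 0.0790 and 0.0802) and MIR390A (0.0700 and 0.0705) were not. The rises of all 3 miRNA loci in ein5 dcl4 dcl2 against ein5 dcl4 held with each of the 6 libraries left out. The fall of MIR173 in ein5 dcl4 against Col-0 ended with Col-0 library a left out (difference -2.21, limma adjusted p = 0.0539, with 24 of 11376 loci lower against 734 with all libraries) and held with each of the other 5 left out.

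The authors' deposited table held a separate test of 2 of these comparisons. In the authors' deposited table MIR173 was lower in ein5 dcl4 than in Col-0 (log2 -2.41, adjusted p = 8.06e-13), while AGO7 (log2 8.12, adjusted p = 0.0102) and DCL4 (log2 4.92, adjusted p = 0.0265) were higher. That made 2 members higher and 1 lower of 8 with an adjusted p, where 19.2% of loci were higher and 0.892% lower in the authors' deposited table. For ein5 dcl4 over ein5 dcl4 dcl2, the opposite direction to the differences above, the authors' deposited table gave MIR173 -4.99 (adjusted p = 1.14e-54), MIR390A -4.00 (adjusted p = 0.000276) and MIR390B -3.92 (adjusted p = 0.000397). These 3 members, 2 of them 1 measurement, were lower and 0 were higher in ein5 dcl4, where 4.17% of loci were lower and 15.3% higher in the authors' deposited table. ARF2 (log2 4.32) had an adjusted p of 0.107 and AGO7 (log2 3.60) one of 0.310 there, so the authors' deposited table did not call these genes in the comparison where limma did.

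Several directions depended on how the libraries were scaled, and 4 scalings were compared. Beside the deposited size factors these were a trimmed mean of ratios, equal totals over the table and equal totals over miRNA loci. Relative to the deposited scaling they moved the median log2 difference by -0.92, -1.97 and 0.75 in ein5 dcl4 against Col-0, by 0.35, 0.45 and -1.84 in ein5 dcl4 dcl2 against ein5 dcl4, and by -0.69, -1.77 and -0.97 in ein5 dcl4 dcl2 against Col-0. Over all loci, 4401 rose and 734 fell in ein5 dcl4 against Col-0 at the deposited scaling, against 2827 and 2752, 1605 and 4738, and 6041 and 764 at the other scalings. The split in ein5 dcl4 dcl2 against ein5 dcl4 was 1288 and 4087, against 1282 and 2765, 1115 and 1910, and 161 and 7755. That in ein5 dcl4 dcl2 against Col-0 was 123 and 34, against 83 and 516, 62 and 3786, and 4 and 1831.

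MIR173 kept its calls in 2 comparisons under all 4 scalings. Its log2 difference in ein5 dcl4 against Col-0 was -4.15 with the trimmed mean, -5.75 with equal table totals and -1.77 with equal miRNA totals. The same difference in ein5 dcl4 dcl2 against ein5 dcl4 was 5.34, 5.44 and 0.93. For ein5 dcl4 dcl2 against Col-0 it was 1.19, -0.32 and -0.84, none of them called, so which of these genotypes had more MIR173 depended on the scaling. The rise of MIR390A in ein5 dcl4 dcl2 against ein5 dcl4 was 4.02 and 3.98 with the first 2 of these scalings and -0.049 with equal miRNA totals, and that of MIR390B was 3.95, 3.91 and -0.11. The fall of ARF2 in ein5 dcl4 dcl2 against ein5 dcl4 held under all 4 scalings (-2.85, -2.43 and -5.43 with the 3 alternatives). The difference of AGO7 in ein5 dcl4 against Col-0 was 2.83, 2.37 and 4.91 with these alternatives. AGO7 held 0 reads in both Col-0 libraries, so no scaling could turn this direction and its stability is no check. All 3 ARF targets were called lower in ein5 dcl4 dcl2 against Col-0 under other scalings than the deposited one. ARF4 was lower under the 3 alternatives (-3.03, -4.34 and -3.98, limma adjusted p 0.0403, 0.00133 and 0.0112). ARF2 was lower with equal table totals (-3.65, limma adjusted p = 0.00413) and equal miRNA totals (-2.93, limma adjusted p = 0.0304), and so was ARF3 (-3.07 and -2.46, limma adjusted p = 0.00907 and 0.0287). In ein5 dcl4 dcl2 against ein5 dcl4, ARF3 and ARF4 were also called lower with equal miRNA totals (-4.02 and -4.19, limma adjusted p = 0.00116 and 0.00188). The calls in ein5 dcl4 against Col-0 pointed both ways. With equal miRNA totals ARF2 (2.50, limma adjusted p = 0.0155) and ARF3 (1.56, limma adjusted p = 0.0442) were higher, with equal table totals ARF3 (-1.92, limma adjusted p = 0.0287) and ARF4 (-3.43, limma adjusted p = 0.00124) were lower, and with the trimmed mean ARF4 was lower (-1.97, limma adjusted p = 0.0253). Each of these alternatives had a median shift over loci in the same direction as the calls it added.

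**Figure D4:**
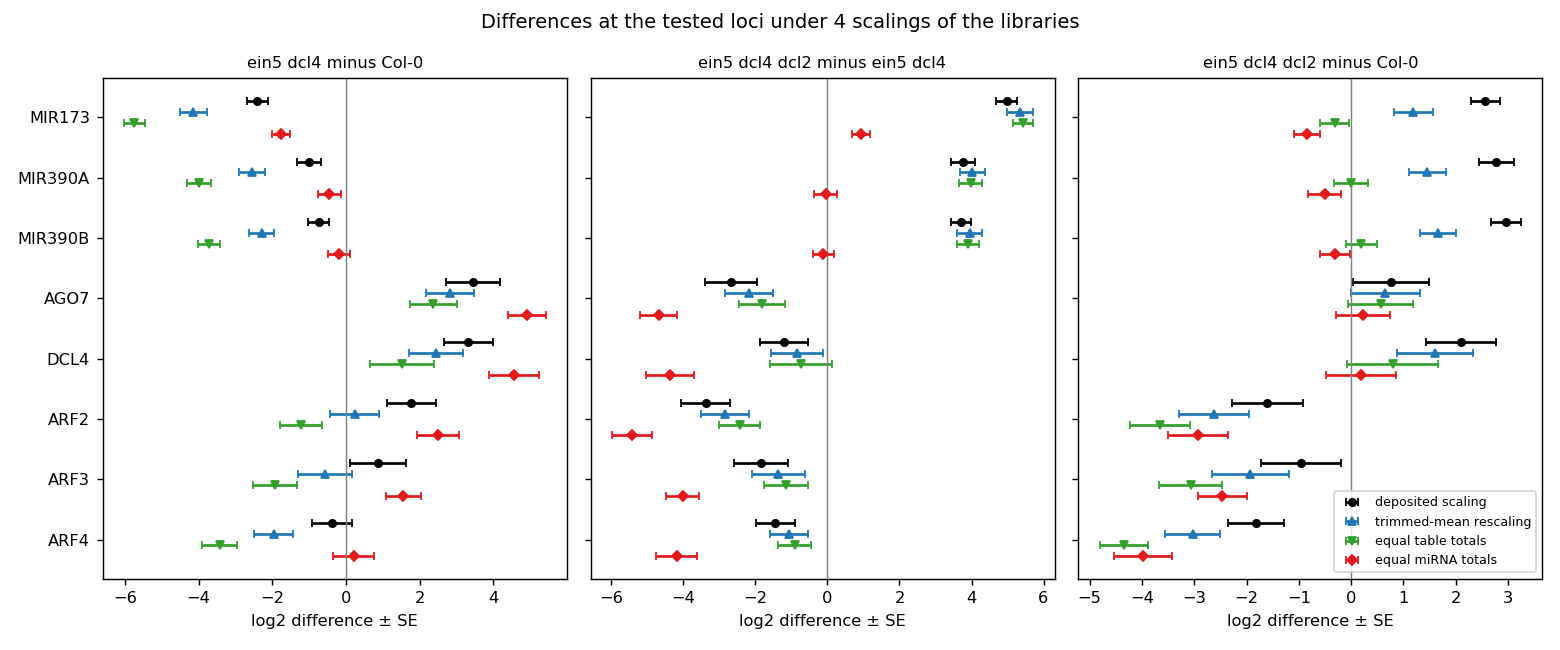
Log2 differences ± SE at the 8 tested loci (rows) in the 3 comparisons (panels), under the deposited scaling (black), trimmed-mean rescaling (blue), equal table totals (green) and equal miRNA totals (red). MIR173 lies left of 0 in ein5 dcl4 minus Col-0 and right of 0 in ein5 dcl4 dcl2 minus ein5 dcl4 under all 4 scalings, while in ein5 dcl4 dcl2 minus Col-0 it lies on both sides.

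The other ARF genes went in both directions. Of the 20 other ARF genes 16 were tested. In ein5 dcl4 against Col-0 6 rose and 4 fell, where 38.7% and 6.45% of all tested loci did. In ein5 dcl4 dcl2 against ein5 dcl4 6 rose and 6 fell, where 11.3% and 35.9% of all tested loci did. In ein5 dcl4 dcl2 against Col-0 none was called with limma. At an unadjusted p under 0.05, 1 was higher, where 1262 of 11376 loci were. Voom weights called 4 higher, where they called 42.2% of all loci higher. Of the 16 genes 7 passed the filter on low values only through the genotype where they were highest, 6 of them through ein5 dcl4, so these counts are a description. ARF6, which is cut under the guidance of miR167, held 2 and 0 reads in ein5 dcl4 dcl2, 21 and 22 reads in ein5 dcl4, and 7 and 12 reads in Col-0. It fell in ein5 dcl4 dcl2 against ein5 dcl4 (log2(value + 1) difference -4.59, SE 0.80, limma adjusted p = 0.00959), a call lost without ein5 dcl4 library a (0.0770) or b (0.0950). ARF8, the other known miR167 target, held 2 and 0 reads in ein5 dcl4 dcl2, 13 and 7 reads in ein5 dcl4, and 0 and 1 reads in Col-0. It passed the filter only through ein5 dcl4. Its difference in ein5 dcl4 against Col-0 was 4.36 (SE 0.75, limma adjusted p = 0.0103), a call lost without any of the Col-0 or ein5 dcl4 libraries (0.0790 to 0.0908).

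The 8 related ARF genes on chromosome 1 (ARF12 to ARF15 and ARF20 to ARF23) went the other way, a grouping made after their values were seen. ARF12 held 6 and 12 reads in ein5 dcl4 dcl2, 0 in both ein5 dcl4 libraries, and 30 and 19 in Col-0. It rose in ein5 dcl4 dcl2 against ein5 dcl4 (log2(value + 1) difference 4.03, SE 0.46, limma adjusted p = 0.00335). Of the 8 genes 6 rose in ein5 dcl4 dcl2 against ein5 dcl4 (median 2.52), where 11.3% of all tested loci rose. In ein5 dcl4 against Col-0 4 fell (median -2.05), where 6.45% of all tested loci fell. With equal miRNA totals, 7 of these genes were tested, 1 rose in ein5 dcl4 dcl2 against ein5 dcl4, and that median was -0.04. In ein5 dcl4 against Col-0 the median was below 0 under all 4 scalings (-3.34, -4.47 and -2.31 with the alternatives). The group was made from these same values, so its counts and medians are a description and no separate check. Of the 8 genes 7 share much of their sequence, with 38.7% to 75.1% of their 21-base words found more than once in the genome, and ARF13 had 0.665%. Their reads may be split or counted more than once, so the single values are uncertain.

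**Figure D5:**
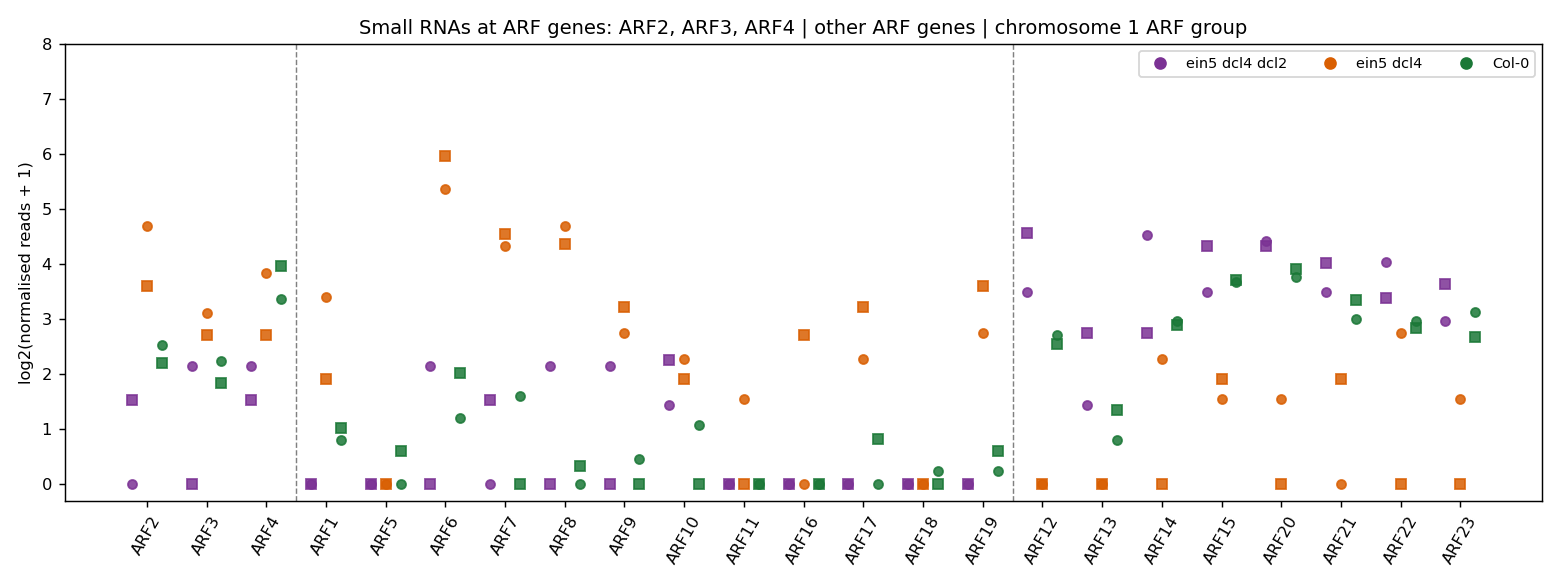
Small RNAs at ARF2, ARF3 and ARF4 (left), the other ARF genes (middle) and the related genes on chromosome 1 (right), on the log2(normalised reads + 1) scale, for ein5 dcl4 dcl2, ein5 dcl4 and Col-0 (circle for library a, square for library b). ARF6 and ARF8 are highest in ein5 dcl4, and on the right the ein5 dcl4 points lie lowest, with ARF12 at 0.

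The MYB branch of the tasiRNA pathway held the largest log2 difference among the lists read here, that of PAP1, at the deposited scaling. In this branch miR828 starts TAS4, whose products target the anthocyanin regulators PAP1, PAP2 and MYB113. PAP1 held 1 and 0 reads in ein5 dcl4 dcl2, 167 and 65 reads in ein5 dcl4, and 10 and 3 reads in Col-0. PAP2 held 0 reads in each ein5 dcl4 dcl2 library, 20 and 10 reads in ein5 dcl4, and 0 and 1 reads in Col-0. PAP1 fell in ein5 dcl4 dcl2 against ein5 dcl4, with a limma log2(value + 1) difference of -7.20 (SE 0.63, adjusted p = 0.00194). PAP2 had a difference of -5.07 (SE 0.36, limma adjusted p = 0.00125), but passed the filter only through ein5 dcl4.

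MIR828A, the trigger of that branch, did not follow MIR173 and MIR390. It held 32 and 26 reads in ein5 dcl4 dcl2, 39 and 23 reads in ein5 dcl4, and 19 and 10 reads in Col-0. It rose in ein5 dcl4 against Col-0 (log2 difference 4.13, SE 0.29, limma adjusted p = 0.00132), and in ein5 dcl4 dcl2 against ein5 dcl4 its difference was -0.41 (limma adjusted p = 0.290), which became -4.32 (limma adjusted p = 0.000427) with equal miRNA totals. Of the 4 loci of this branch 3 rose in ein5 dcl4 against Col-0, where 38.7% of all tested loci rose. In ein5 dcl4 dcl2 against ein5 dcl4 2 fell, where 35.9% of all tested loci fell. Both counts include PAP2, which was testable only through ein5 dcl4. In ein5 dcl4 dcl2 against Col-0 1 rose, where 1.08% of all tested loci rose. That 1 was MIR828A (3.72, limma adjusted p = 0.0113), and its rise over Col-0 was not called with equal miRNA totals (0.61, limma adjusted p = 0.530) or with only those 2 genotypes in the fit (limma adjusted p = 0.0680). PAP1 kept the direction and call of its difference in ein5 dcl4 dcl2 against ein5 dcl4 under all alternatives run. So did MIR828A for its difference in ein5 dcl4 against Col-0. PAP1 held 1 and 0 reads in ein5 dcl4 dcl2 against 167 and 65 in ein5 dcl4, so its stable direction is a weak check. It also passed the filter narrowly without ein5 dcl4 (mean of the other 4 libraries 1.08 normalised reads, where 1 is needed). The PAP2 difference in ein5 dcl4 dcl2 against ein5 dcl4 also stayed called. PAP2 lacked any read in ein5 dcl4 dcl2, so no alternative could turn that direction and its stability is no check.

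The remaining lists were thin. Of 5 genes of the HTT family, known targets of TAS1 products, 2 were tested, both only through their reads in ein5 dcl4. HTT2 held 0 and 0 reads in ein5 dcl4 dcl2, 6 and 2 reads in ein5 dcl4, and 0 in both Col-0 libraries. Its log2(value + 1) difference in ein5 dcl4 against Col-0 was 3.18 (SE 0.45, limma adjusted p = 0.00632), a call lost without either Col-0 library (0.0675), and 20.8% of its 21-base words occur more than once in the genome. AT5G18065 had a difference of 2.20 in the same comparison (SE 0.61, limma adjusted p = 0.0361), on 4 reads in ein5 dcl4 and 2 in Col-0. It lost its call with trimmed-mean scaling (0.0832), equal table totals (0.358), a pseudocount of 0.5 (0.0503) and no filter (0.0766), and when any library of these genotypes was left out.

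Of 17 other genes of the small RNA machinery 7 were tested, 4 of them only through their reads in ein5 dcl4 (AGO10 and RDR1, with HEN1 and SDE5 named after their values were seen), so the counts are a description. Of the 7 tested genes 3 rose in ein5 dcl4 against Col-0, where 38.7% of all tested loci rose. In ein5 dcl4 dcl2 against ein5 dcl4 3 fell, where 35.9% of all tested loci fell. None was called in ein5 dcl4 dcl2 against Col-0 with limma. At an unadjusted p under 0.05, 1 was higher there, where 1262 of 11376 loci were. Voom weights called 4 higher, against the 42.2% of all loci given above. AGO2, an ARGONAUTE with roles in antiviral defence, held 39 and 27 reads in ein5 dcl4 dcl2, 218 and 106 reads in ein5 dcl4, and 78 and 68 reads in Col-0, and rose in ein5 dcl4 against Col-0 by 4.38 (SE 0.30, limma adjusted p = 0.00120). AGO10, an ARGONAUTE known for binding miR165 and miR166, held 0 and 2 reads in ein5 dcl4 dcl2, 7 and 4 reads in ein5 dcl4, and 0 in both Col-0 libraries. Its log2(value + 1) difference in ein5 dcl4 against Col-0 was 3.73 (SE 0.78, limma adjusted p = 0.0166), a call lost without any of the Col-0 or ein5 dcl4 libraries (0.109 to 0.124). RDR1, an RNA-dependent RNA polymerase, had a difference of -2.49 in ein5 dcl4 dcl2 against ein5 dcl4 (SE 0.41, limma adjusted p = 0.00810), on 0 reads in ein5 dcl4 dcl2 against 2 in each ein5 dcl4 library, and did not reach the filter with equal table totals.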

How the data were processed

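The authors deposited 1 table with 1 value per locus and genotype, used here as a signal. The column names say TPM per the file headers, yet each value is the mean of 2 libraries' reads divided by a size factor. Every value above 0 was written as whole reads of 2 libraries within a relative tolerance of 1e-14, and the steps so found matched median-of-ratios factors over 2300 loci to within 2.3e-15. Tools named per the submitters' processing notes were Bowtie 1.2.2, SAMtools 1.9 and DESeq2, with the TAIR10 build. Read 2 of each pair was left out per the labels. The sources used here give no read lengths, strand or handling of multiple matches. The authors deposited log2 fold changes with p-values and adjusted p-values for 2 comparisons.

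Genotypes were compared on log2(value + 1) with limma 3.58.1 (R 4.3.3), all 6 libraries in 1 fit with a trended prior (3 residual and 2.16 prior degrees of freedom). The 11376 loci with a mean of at least 1 were tested, and those with a two-sided p under 0.05 after Benjamini-Hochberg adjustment were called. The p-values measure the spread between these libraries. The 2 libraries of each genotype differed by more than sampling noise (chi-square per degree of freedom 5.82 in ein5 dcl4 dcl2, 5.26 in ein5 dcl4 and 3.18 in Col-0) and counted as 2 samples. The steps were also run on simulated reads, and no result of that run is given or relied on here. RefSeq TAIR10.1 gave names for 31722 loci, coordinates and sequences, and the table holds no coordinates. Text names all 10 members, up to 3 called loci per other list with the largest difference, and the 3 nearest loci of members with a mean of at least 10. Members and lists were chosen with earlier results of these data known.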

Additional observations from a re-analysis of the deposited data

How the results depend on the processing

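Counts of members called moved with the scaling. With trimmed-mean rescaling, 4 of 8 tested members were lower in ein5 dcl4 against Col-0, where 27.8% of 9907 loci were lower. In ein5 dcl4 dcl2 against Col-0, 0 were higher and 1 lower, where 0.838% and 5.21% of loci were. With equal table totals, 1 of 8 was higher and 5 lower in ein5 dcl4 against Col-0, where 16.8% and 49.7% of 9538 loci were. In ein5 dcl4 dcl2 against ein5 dcl4, 1 was lower, where 20% of loci were. In ein5 dcl4 dcl2 against Col-0, 0 were higher and 3 lower, where 0.65% and 39.7% of loci were. With equal miRNA totals 9 members were tested, and 4 were higher in ein5 dcl4 against Col-0, where 36.2% of 16698 loci were. In ein5 dcl4 dcl2 against ein5 dcl4, 1 was higher and 5 lower, where 0.964% and 46.4% of loci were. In ein5 dcl4 dcl2 against Col-0, 0 were higher and 3 lower, where 0.024% and 11% of loci were. Directions turned in ein5 dcl4 against Col-0 for ARF3 (-0.56 with the trimmed mean, -1.92 with equal table totals), ARF2 (-1.22 with equal table totals) and ARF4 (0.21 with equal miRNA totals). They turned in ein5 dcl4 dcl2 against Col-0 with equal table totals for MIR173 (-0.32) and MIR390A (-0.0090). With equal miRNA totals they turned there for MIR173 (-0.84), MIR390A (-0.51) and MIR390B (-0.30), and in ein5 dcl4 dcl2 against ein5 dcl4 for MIR390A (-0.049) and MIR390B (-0.11).

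Without a filter, 1 of 10 members was lower in ein5 dcl4 dcl2 against ein5 dcl4, where 16.9% of 21500 loci were lower. With a mean of at least 10, only the 3 miRNA members were tested, so AGO7, DCL4 and ARF2 could not be called. Then 0 members were lower in ein5 dcl4 dcl2 against ein5 dcl4, where 38% of 1852 loci were. In ein5 dcl4 against Col-0, 0 were higher, where 34.9% of loci were. With only the 2 genotypes compared in the fit, 1 was lower in ein5 dcl4 dcl2 against ein5 dcl4 and 0 were higher in ein5 dcl4 dcl2 against Col-0. In the last comparison 0 were higher with no trend in the prior and 5 with voom weights on the recovered reads. The counts over all loci moved likewise. In ein5 dcl4 dcl2 against Col-0, 123 of 11376 loci were higher as reported, 15 with only these genotypes, 16 with no trend and 4803 (42.2%) with voom weights, and in ein5 dcl4 dcl2 against ein5 dcl4 4087 were lower as reported and 2755 with only these genotypes. The cause of these shifts was not tested. Pseudocounts of 0.5 and 5 left each count of members within 1.5 times.

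With each library left out in turn, 1 genotype keeps only 1 library, and how many loci are called in all changes, as described above. Counts of members called in these fits are therefore not read as results. The lone library left was assumed to vary like the other genotypes, and in ein5 dcl4 dcl2 against Col-0 limma called 0 of 11376 loci without any 1 library of these genotypes, with 575 to 1583 higher at an unadjusted p under 0.05. The log2 difference then ranged over -0.94 to 0.19 for ARF4 in ein5 dcl4 against Col-0, and in ein5 dcl4 dcl2 against Col-0 over 0 to 1.54 for AGO7 and -2.03 to 0.11 for ARF3.

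The difference in share of miRNA reads between ein5 dcl4 dcl2 and ein5 dcl4 ranged, with 1 library left out, over -0.000886 to 0.000420 percentage points for MIR390A and -0.00114 to 0.000170 for MIR390B. With all libraries and all miRNA loci the difference was -0.000233 for MIR390A and -0.000482 for MIR390B. As a share of the table total it was 0.00496 for MIR390A and 0.00472 for MIR390B, and without the MIR165 and MIR166 loci 0.00901 and 0.00810. Its direction thus turned under both alternatives. For MIR390B in ein5 dcl4 dcl2 against Col-0 these alternatives gave 0.000641 and 0.000103, against -0.00129 with all miRNA loci. No paired analysis was possible because nothing ties the recovered libraries to a replicate number. Makers and ARF targets held 0 to 57 reads per library and the MIR390 loci 2 to 60, which limits what can be detected at them.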
